A study of Homo sapiens with 5 samples.

Results

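The 10 tubulin genes TUBA1A, TUBA1B, TUBA1C, TUBA4A, TUBB, TUBB2A, TUBB4B, TUBB6, TUBG1 and TUBG2 were followed in TF-1 cells, a human acute myeloid leukaemia (AML) line, with or without a knockout of MTSS1, which encodes a membrane- and actin-binding protein. The genes were chosen by name, with earlier results of these data known. The count table held a row for each of them among 27328 genes. RNA of 5 libraries was measured by QuantSeq, which reads a short tag near the 3′ end of each mRNA. Both groups carried Cas9-GFP and a single guide RNA (sgRNA) delivered by lentivirus. Each library came from a pool of 4 single-cell clones. The 2 control pools carried an sgRNA against renilla luciferase, a gene that human cells lack, and the 3 knockout pools each carried a different MTSS1 sgRNA (sgMTSS1_1, sgMTSS1_2 and sgMTSS1_3), with loss of the protein checked by immunoblot in the study. A pool is therefore a selected set of clones, and the p-values below measure the spread between the pools that were kept. The authors had excluded a further control pool and a further knockout pool as outliers of their groups. The spread between the pools kept may therefore be too small, and the p-values and intervals too favourable.

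Microtubules are hollow polymers of alpha- and beta-tubulin dimers. They form the mitotic spindle and carry cargo through the cell. Humans have several alpha and beta genes, called isotypes, whose proteins differ mainly in their tails, and gamma-tubulin sits in ring complexes from which new microtubules grow. Cells lower tubulin mRNA when free tubulin dimers are plentiful, a feedback in which TTC5 recognises nascent tubulin on the ribosome.

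Library totals ran from 2849979 to 3408827 counts in the controls and from 5442639 to 8854899 in the knockout pools, so every knockout library was deeper than both controls. A total of 3 counts corresponded to between 0.387 and 0.932 CPM (counts per 1000000 of the library total, the total being scaled by its TMM factor). All 13 markers of TF-1 cells (GATA1, KIT, EPOR and others) were present, with summed levels of 1950 to 2833 CPM, whereas summed markers of B cells ran from 3.22 to 11.6 CPM, those of T cells reached at most 5.71 CPM and those of monocytes, epithelium and fibroblasts stayed below 1 CPM. MTSS1 itself was at 203 and 87.4 CPM in the control pools compared with 103, 138 and 49.6 CPM in the knockout pools (log2-fold change -0.58, adjusted p = 0.494). The groups overlapped. A tag at the 3′ end does not check a cut near the start of the gene.

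Of the 10 tubulins, TUBA4A, TUBB2A and TUBB4B were more abundant in the knockout pools, by 9.59-fold, 5.76-fold and 6.12-fold, and none was called lower. A gene was called differentially expressed at an adjusted p under 0.05 in edgeR's quasi-likelihood test with a log2-fold change (log2FC) above 1 or below -1. Over the whole table, 5.18% of the 14391 tested genes were called, with 4.17% higher and 1.01% lower in the knockout pools. The 10 members had a median log2FC of 0.45, against -0.03 over all tested genes. The members had been chosen with earlier results of these data known, so this comparison is a description and not a test. DESeq2 and limma-voom called the same 3 members and likewise none lower, and no member below 0 had an unadjusted p under 0.05. The 3 calls were also made after every library had been thinned to the smallest total. Without sgMTSS1_1 the count of called members was 0 and without sgMTSS1_3 it was 1. Calls over the whole table fell as well, from 745 to 111 of 13358 tested genes without sgMTSS1_1 and to 191 of 13303 without sgMTSS1_3.

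TUBA4A (ENSG00000127824, chromosome 2, 219249710 to 219277902, minus strand, GRCh38) encodes an alpha-tubulin known for its part in platelets and in neurons. It was at 15.2 and 53.3 CPM in the control pools compared with 422, 289 and 277 CPM in sgMTSS1_1, sgMTSS1_2 and sgMTSS1_3. The lowest knockout pool thus lay well above the highest control pool, although the controls differed from each other as well. The log2FC was 3.26 ± 0.54 (SE, n = 2 and 3), with a 95% interval of 2.05 to 4.47 and an adjusted p of 0.0147 by edgeR. Leaving out control pool 1 or control pool 2 gave 2.64 or 4.46, and without sgMTSS1_1 the adjusted p was 0.0647 in the same edgeR test at a log2FC of 3.05. On the opposite strand, TUBA4A overlaps STK16, a kinase gene, by 628 bases and TUBA4B, annotated as protein-coding, by 18955 bases. STK16 was at 14.9 and 46.2 CPM in the control pools compared with 45.4, 32.7 and 33.4 CPM in the knockout pools. Its groups overlapped, with control pool 2 the highest. TUBA4B was at 0.62 and 0.296 CPM in the control pools compared with 1.55, 1.08 and 1.38 CPM in the knockout pools, with at most 12 counts in a library. Whether counting used the strand is not given in the sources used here.

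TUBB4B (ENSG00000188229, chromosome 9, 137241287 to 137243707, plus strand) encodes a beta-tubulin found in most tissues and in the axonemes of cilia. Its levels were 6.21 and 14.8 CPM in the control pools compared with 54.9, 56.3 and 82.7 CPM in the knockout pools. No knockout pool came near the controls. The log2FC was 2.61 ± 0.44 (SE, n = 2 and 3), with a 95% interval of 1.63 to 3.6 and an adjusted p of 0.0155 by edgeR. Without control pool 2, the higher of the controls, the log2FC was 3.40. The edgeR adjusted p was 0.0606 without sgMTSS1_1 and 0.053 without sgMTSS1_3, at a log2FC of 2.72 and 2.42.

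TUBB2A (ENSG00000137267, chromosome 6, 3153497 to 3157544, minus strand) encodes a beta-tubulin best known from neurons. It was at 24.6 and 18.4 CPM in the control pools compared with 130, 55.4 and 185 CPM in the knockout pools. All knockout pools were higher, with sgMTSS1_2 the nearest to the controls. The log2FC was 2.53 ± 0.51 (SE, n = 2 and 3), with a 95% interval of 1.38 to 3.67 and an adjusted p of 0.0256 by edgeR. This call depended on several libraries, since the edgeR adjusted p was 0.0637 without control pool 2, 0.0963 without sgMTSS1_1 and 0.0665 without sgMTSS1_3. The log2FC was then 2.36, 2.49 and 2.16.

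TUBB2B, a neighbouring beta-tubulin gene whose protein is nearly identical to that of TUBB2A, was not among the 10 members but is needed to read TUBB2A. It lies 65779 bases from TUBB2A on chromosome 6. Its levels were 73.0 and 63.1 CPM in the control pools compared with 462, 298 and 503 CPM in the knockout pools, so the groups were far apart. TUBB2B rose with a log2FC of 2.63 ± 0.37 (SE, n = 2 and 3; edgeR adjusted p = 0.0098) and passed the test in all 14 other analyses. The last 500 bases of TUBB2B had no exact 50-base copy elsewhere in the genome. Part of those of TUBB2A recur in TUBB2B, as described below.

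**Figure D1:**
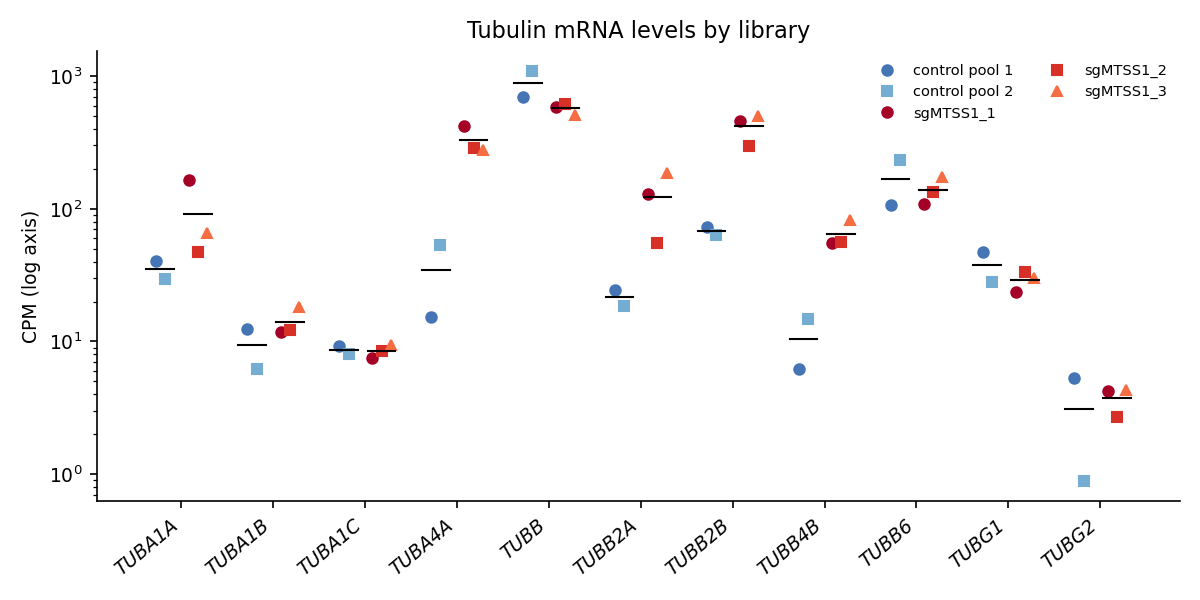
Levels of the 10 tubulins and of TUBB2B in each library, in CPM on a log axis. Blue symbols are the control pools, red and orange symbols the knockout pools, and the lines are group means. For TUBA4A, TUBB2A, TUBB2B and TUBB4B all knockout pools lie above both controls, whereas TUBB, at 513 to 1088 CPM the most abundant, is lower in every knockout pool.

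TUBB (ENSG00000196230, chromosome 6, 30717435 to 30725538, plus strand), the major beta-tubulin of dividing cells, was the most abundant member. It was at 698 and 1088 CPM in the control pools compared with 583, 615 and 513 CPM in the knockout pools. Every knockout pool was below both controls. The log2FC was -0.65 ± 0.33 (SE, n = 2 and 3), with a 95% interval of -1.39 to 0.09, and the edgeR adjusted p was 0.277. Thus TUBB did not pass the test. TUBB6, a beta-tubulin known from muscle and other tissues, was at 107 and 231 CPM against 109, 135 and 174 CPM, with overlapping groups and a log2FC of -0.28 (95% interval -1.13 to 0.57). Without control pool 2 its log2FC was 0.41.

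The remaining alpha members were low. TUBA1A, the main alpha-tubulin of developing neurons, was at 40.7 and 29.3 CPM in the control pools compared with 164, 47.2 and 65.4 CPM in the knockout pools. All knockout pools were above both controls, but sgMTSS1_1 stood apart from the other two. The log2FC was 1.40 ± 0.52 (SE, n = 2 and 3; edgeR adjusted p = 0.147), and it was 0.69 without sgMTSS1_1. TUBA1B, a widespread alpha-tubulin, was at 12.4 and 6.22 CPM against 11.9, 12.2 and 18.3 CPM (log2FC 0.60, 95% interval -0.35 to 1.55). TUBA1C, which also is widespread, was at 9.32 and 8.0 CPM against 7.48, 8.43 and 9.34 CPM (log2FC -0.04, 95% interval -0.87 to 0.79). The groups overlapped for both genes. These 3 alpha genes lie side by side on chromosome 12, with TUBA1B and TUBA1A 53288 bases apart and TUBA1A and TUBA1C overlapping by 345 bases on opposite strands.

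The gamma genes nucleate microtubules rather than build them. TUBG1 was at 46.9 and 28.1 CPM in the control pools compared with 23.5, 33.4 and 30.1 CPM in the knockout pools (log2FC -0.37, 95% interval -1.13 to 0.38). TUBG2, its neighbour 44045 bases away on chromosome 17, was at 5.28 and 0.889 CPM against 4.25, 2.69 and 4.32 CPM (log2FC 0.30, 95% interval -1.22 to 1.82). Neither passed the test and both had overlapping groups. In control pool 2, TUBG2 rested on 3 counts, and its log2FC was -0.46 without that pool.

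In all, every knockout pool lay above both controls for 4 of the 10 members and below both for 1, TUBB. Over all tested genes the shares were 22.2% above and 19.3% below.

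**Figure D2:**
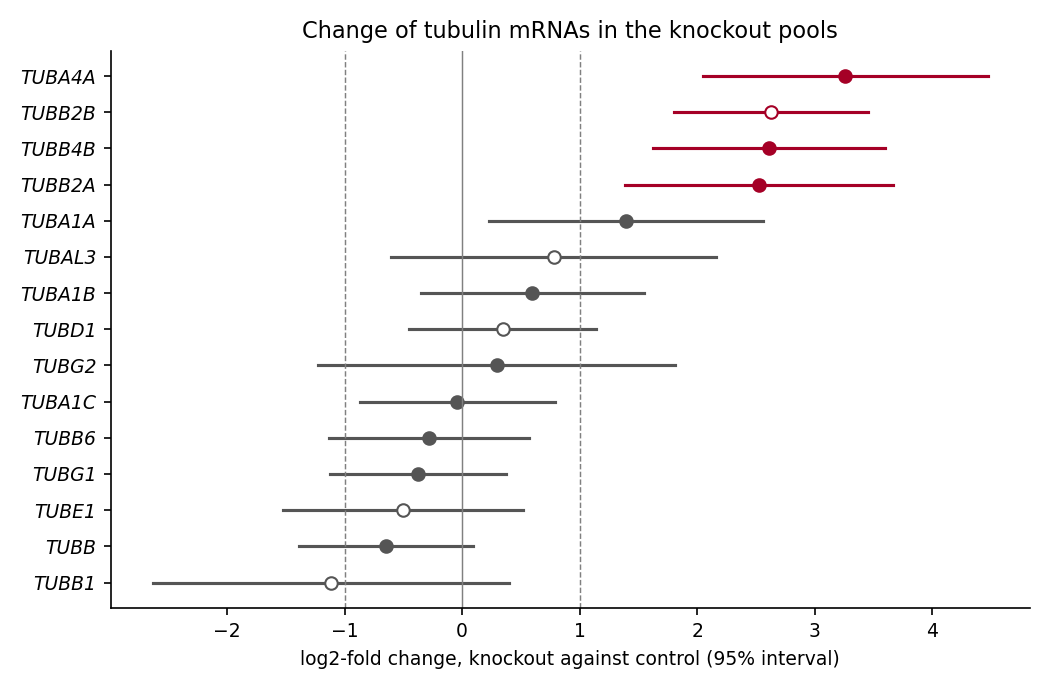
Log2-fold change of each tested tubulin gene in the knockout pools against the control pools (points) with 95% intervals (lines). Filled points are the 10 members and open points other tubulin genes, red marks differential expression and dashed lines stand at -1 and 1. TUBA4A, TUBB2B, TUBB4B and TUBB2A form the upper end, with intervals wholly above 1.

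Of 12 further tubulin genes, 10 had a row and 5 were abundant enough to test. TUBB2B was the one called. TUBB1, the beta-tubulin of platelets and megakaryocytes, was at 2.8 and 9.48 CPM against 2.06, 1.44 and 5.01 CPM (log2FC -1.12, edgeR adjusted p = 0.357). TUBAL3, TUBD1 and TUBE1 had a log2FC of 0.78, 0.34 and -0.50 and did not pass. The direction was turned by leaving out control pool 2 for TUBB1 (0.04) and control pool 1 for TUBE1 (0.21). TUBA3C, TUBA3D, TUBA3E, TUBA8 and TUBB4A stayed at or below 2.25 CPM in each library. TUBB3 and TUBB8 were not analysed here.

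The promoters of the 3 called members are shown because these genes moved in the same direction. The sequences are the 130 bases before the RefSeq start site (GRCh38.p14), read 5′ to 3′ on the gene's strand. Capitals mark every match, on either strand, to CCAAT, to the GC box letters GGGCGG, to the TATA box letters of TATAAA or to the cyclic AMP response element, spelled TGACGTCA, and the first capitals of TUBA4A are the end of a match that starts outside. The windows are chr2:219253919-219254048 (minus), chr6:3157545-3157674 (minus) and chr9:137241157-137241286 (plus).
TUBA4A: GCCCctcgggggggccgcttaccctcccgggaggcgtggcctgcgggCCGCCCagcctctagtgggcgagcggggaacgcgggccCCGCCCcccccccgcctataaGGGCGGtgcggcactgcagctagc
TUBB2A: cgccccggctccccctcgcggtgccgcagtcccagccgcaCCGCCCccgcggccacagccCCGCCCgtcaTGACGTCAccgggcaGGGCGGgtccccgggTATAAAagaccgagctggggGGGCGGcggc
TUBB4B: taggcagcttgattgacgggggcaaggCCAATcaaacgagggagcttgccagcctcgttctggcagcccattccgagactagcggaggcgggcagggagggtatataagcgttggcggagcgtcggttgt

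None of the 4 motifs, as spelled here, occurred in all 3 promoters. Variants of these spellings were not sought. The letters TATAA stand in all 3 printed sequences, unmarked in TUBA4A and TUBB4B, and whether they act as TATA boxes was not tested. Searched from 250 bases before to 50 bases after the start, TUBA4A held 4 and TUBB2A 5 matches to GGGCGG, whereas TUBB4B held none but had 3 matches to CCAAT. TUBB2A alone among the 10 members held TATAAA and TGACGTCA, at 30 and 60 bases before the start. Of 35116 RefSeq promoter windows of this length, 34.6% held CCAAT, 45.0% GGGCGG, 11.5% TATAAA and 1.85% TGACGTCA. Both CCAAT and GGGCGG occurred in at least one window of 7 of the 10 members, so neither set the called genes apart from the others.

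The make-up of the tubulin counts differed between the groups. Because a 3′ tag is counted about once per molecule, shares within a family do not depend on gene length, but they do depend on how much of each 3′ end is unique. Among 9 alpha genes, TUBA4A took 18.2% and 52.9% of counts in the control pools compared with 68.9%, 80.4% and 73.8% in the knockout pools. TUBA4B, with at most 12 counts in a library, was left out of the alpha sums. The knockout pools were higher, though the control pools differed from each other by more than control pool 2 differed from any knockout pool. When counts of tubulin pseudogenes, described below, were added to the alpha sum, the TUBA4A share was 12.5% and 47.7% in the control pools compared with 42.6%, 50.4% and 47.3% in the knockout pools, and the groups overlapped. TUBA1A took 48.7% and 29.1% in the control pools compared with 26.7%, 13.1% and 17.4% in the knockout pools. Wilson 95% intervals for TUBA4A, without the pseudogenes, ran from 14.1% to 23.3% and from 47.6% to 58.2% in the control pools. In sgMTSS1_1, sgMTSS1_2 and sgMTSS1_3 they ran from 67.55% to 70.18%, from 78.6% to 82.0% and from 71.9% to 75.6%. These intervals cover counting error only. The shares are of counted reads, and whether TUBA4A is the main alpha-tubulin mRNA of these cells was not tested.

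Among 7 beta genes, TUBB took 76.5% and 76.3% of counts in the control pools compared with 43.4%, 52.9% and 35.0% in the knockout pools. The controls were almost the same and every knockout pool was lower. TUBB2B took 8.0% and 4.43% against 34.4%, 25.7% and 34.3%, TUBB2A 2.69% and 1.29% against 9.69%, 4.77% and 12.7%, and TUBB4B 0.681% and 1.04% against 4.09%, 4.85% and 5.64%. Of these 3 genes TUBB2B had the largest difference in share. Among the gamma counts TUBG1 made up between 84.7% and 96.9% in every library, with overlapping groups.

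**Figure D3:**
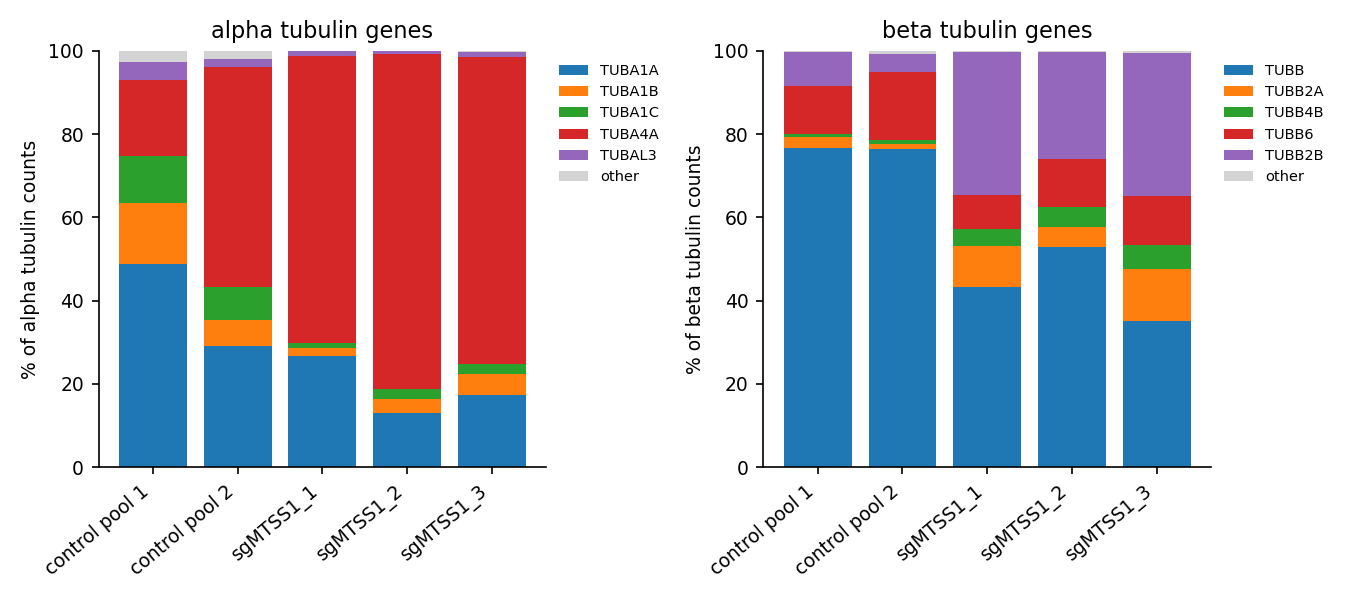
Share of each gene in the summed counts of 9 alpha (left) and 7 beta tubulin genes (right), in per cent for each library. Genes that never reach 2% are joined as other. TUBA4A fills 68.9% to 80.4% of the alpha bar in the knockout pools, and TUBB falls from about 76.5% of the beta bar to between 35.0% and 52.9%.

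Summed alpha levels were 83.6 and 101 CPM in the control pools compared with 613, 360 and 375 CPM in the knockout pools. Summed beta levels were 913 and 1426 CPM against 1342, 1163 and 1465 CPM. The alpha sums did not overlap while the beta sums did. Alpha counts were fewer than beta counts in every library, although dimers pair alpha with beta chains. The ratio was 0.0916 for control pool 1 and 0.0707 for control pool 2. For sgMTSS1_1, sgMTSS1_2 and sgMTSS1_3 it was 0.456, 0.31 and 0.256. Whether the counts cover all alpha mRNA was not tested, so the sums describe counted reads and not total alpha-tubulin mRNA. In the knockout pools the log2 ratio of alpha to beta counts was higher by 2.04 (exact permutation test, two-sided, p = 0.2, Benjamini-Hochberg adjusted p = 0.3 over 6 ratios). With 2 against 3 libraries 0.2 is the smallest p this test can give. The ratios of TUBB4B to TUBB, TUBB2A to TUBB and TUBA4A to TUBA1B were higher by 3.34, 2.99 and 2.85 on the log2 scale, with no overlap and the same smallest p in the exact permutation test. TUBA1A to TUBA1B (0.55, exact permutation p = 0.8) and TUBG2 to TUBG1 (1.1, exact permutation p = 0.4) overlapped. These ratios are taken within a library and do not depend on scaling between libraries.

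Tubulin genes resemble each other, and the authors removed reads that mapped to more than one place. The last 500 bases of each transcript were therefore cut into all stretches of 50 bases, the read length, and exact copies were sought elsewhere in the GRCh38 genome. TUBA4A, TUBB6 and TUBB2B had none, and TUBB had 2 of 451. For TUBB2A 55.4% of stretches had a copy, each of them in TUBB2B among other places. The share was 49.9% for TUBA1B, 36.1% for TUBA1A, 25.5% for TUBB4B, 12.4% for TUBG1, 10.4% for TUBG2 and 3.1% for TUBA1C. In the last 200 bases, it was 14.6% for TUBA1A, 7.95% for TUBB4B, 1.32% for TUBB and 0% for the other members. Levels of TUBA1A, TUBA1B, TUBB2A and TUBB4B are thus counted from a part of their 3′ sequence, and the effect of this on their changes was not tested. TUBA4A and TUBB2B, whose last 500 bases held no stretch with an exact copy elsewhere, were both called higher. Copies with mismatches were not sought, so whether the reads of these genes were placed correctly was not tested.

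**Figure D4:**
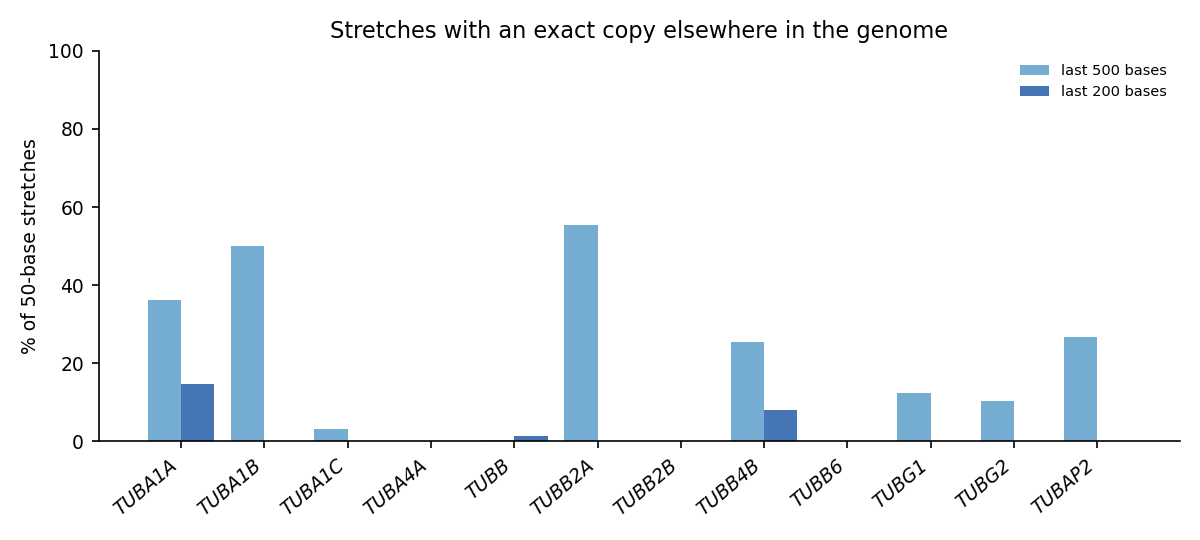
Per cent of 50-base stretches with an exact copy elsewhere in the genome, in the last 500 (light) and last 200 bases (dark) of the transcripts of the 10 members, TUBB2B and TUBAP2. TUBB2A (55.4%) and TUBA1B (49.9%) share the most, and TUBA4A, TUBB2B and TUBB6 share none.

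Rows for tubulin pseudogenes, which are mostly copies of a spliced mRNA put back into the genome, were examined as well. Of 15 such rows 5 were tested and 4 were called higher. The other tested row, TUBBP1, was at 3.42 and 2.96 CPM in the control pools compared with 2.45, 2.33 and 1.9 CPM in the knockout pools (log2FC -0.51, edgeR adjusted p = 0.597) and was, like TUBB4BP2, named after its values were seen. TUBAP2, an alpha-tubulin copy on chromosome 11 that shares 26.8% of the 50-base stretches in its last 500 bases with TUBA1B, TUBA1C or TUBA1A, was at 36.4 and 8.89 CPM in the control pools compared with 358, 200 and 196 CPM in the knockout pools (log2FC 3.48, edgeR adjusted p = 0.017). Its groups did not overlap, and its level in the knockout pools was above that of TUBA1A or TUBA1B. Without sgMTSS1_1 its edgeR adjusted p was 0.0692, and without control pool 1 or 2 its log2FC was 4.83 or 2.81. TUBAP14 held 0 and 1 counts in the control pools compared with 77, 44 and 47 in the knockout pools. TUBAP15 held 0 counts in both control pools, below a floor of 3 counts or 0.932 CPM, and 47, 20 and 21 in the knockout pools. TUBB4BP2 held 0 counts in both controls and 16, 10 and 12 in the knockout pools. Without sgMTSS1_1 the call of TUBAP15 was lost (edgeR adjusted p = 0.0647). In the last 500 bases of TUBAP14 and TUBB4BP2 and in the 478 bases of TUBAP15, no 50-base stretch had an exact copy elsewhere. The rest of TUBAP14 and TUBB4BP2 was not searched. Processed pseudogenes as a class, examined after these values were seen, had 9.53% of 1333 tested rows called higher and 3.15% called lower, both above the shares of all genes. They took 2.38% and 2.41% of counts in the control pools compared with 3.61%, 2.61% and 2.81% in the knockout pools. The part of this in the tubulin results was not tested.

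The genes most like a member in their levels over the 5 libraries were sought among 8603 genes of at least 10 CPM on average. The distance was the root mean square difference in log2 CPM relative to the control mean. For TUBA4A the nearest were TPT1P5 (0.296), RPLP0P9 (0.306) and RPL6P25 (0.346), all 3 pseudogene rows of abundant mRNAs. RPLP0P9, for instance, was at 19.3 and 46.2 CPM in the control pools compared with 493, 217 and 240 CPM in the knockout pools. For TUBB they were CISD3 (0.056), DNM1L (0.066) and DCAF17 (0.075), and for TUBG1 they were CUL3 (0.035), VPS13A (0.06) and ANKH (0.064). CISD3, for example, was at 41.6 and 61.3 CPM against 34.3, 38.0 and 30.4 CPM. With 5 libraries this likeness is a description.

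Genes that nucleate, fold, modify or bind tubulin were mostly not called. Among 11 tested genes of the gamma-tubulin ring complex, TUBGCP3, one of its core subunits, was called higher, and DESeq2 also called NEDD1 (edgeR log2FC 1.33, adjusted p = 0.0551). TUBGCP3 was at 23 and 21.9 CPM in the control pools compared with 104, 136 and 124 CPM in the knockout pools. Both groups were tight and far apart (log2FC 2.43 ± 0.32, SE, n = 2 and 3; edgeR adjusted p = 0.0076), and the call was made in all 14 other analyses. The other members of the complex ran from -1.05 to 1.33, and the median of the list was -0.10.

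Of 9 folding cofactors and autoregulation genes none was called by edgeR or limma-voom, 2 had an unadjusted p under 0.05 and DESeq2 called TBCB. For comparison, 3357 of all 14391 tested genes had an unadjusted p under 0.05 in edgeR's test, and DESeq2 called 1343 of them. TTC5, the factor that recognises nascent tubulin in the feedback on tubulin mRNA, was at 5.59 and 7.41 CPM in the control pools compared with 15.7, 15.4 and 11.8 CPM in the knockout pools (log2FC 1.13, edgeR adjusted p = 0.113). TBCB, a cofactor that binds alpha-tubulin, was at 93.8 and 24.6 CPM against 188, 145 and 146 CPM (log2FC 1.43, edgeR adjusted p = 0.126). Neither gene's groups overlapped, yet neither passed the test. Control pool 1 was the higher control for TBCB, and without it TBCB was called (log2FC 2.71, edgeR adjusted p = 0.0095).

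Of the 6 subunits of prefoldin, which hands nascent tubulin to the chaperonin, none was called by edgeR, DESeq2 or limma-voom, and 0 had an unadjusted p under 0.05. VBP1 had a log2FC of 0.58. PFDN5 was at 258 and 2019 CPM in the control pools compared with 950, 657 and 691 CPM in the knockout pools, so that its log2FC of -0.57 became 1.59 without control pool 2 (edgeR adjusted p = 0.0425) and -1.38 without control pool 1 (edgeR adjusted p = 0.0365). Of the 8 subunits of the CCT chaperonin, which folds tubulin, none was called by edgeR or limma-voom, 2 had an unadjusted p under 0.05 and DESeq2 called CCT8. CCT8 was at 481 and 293 CPM against 1115, 693 and 870 CPM (log2FC 1.21, edgeR adjusted p = 0.0978), whereas TCP1 was at 133 and 165 CPM against 111, 85.4 and 73.1 CPM (log2FC -0.73, edgeR adjusted p = 0.184). CCT8 was called without control pool 1 (edgeR adjusted p = 0.0403).

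Of 14 tested enzymes that modify tubulin, SIRT2, a deacetylase of alpha-tubulin, was called higher. Its levels were 8.39 and 12.4 CPM in the control pools compared with 26.4, 27.6 and 36.0 CPM in the knockout pools (log2FC 1.52, edgeR adjusted p = 0.0427). This call was close to the threshold. With all libraries kept it was lost with limma-voom (adjusted p = 0.0504), with library size alone (edgeR adjusted p = 0.0591) and after thinning (edgeR adjusted p = 0.0538). The edgeR adjusted p was 0.0759 without control pool 1, 0.0983 without sgMTSS1_1, 0.0914 without sgMTSS1_2 and 0.154 without sgMTSS1_3, at a log2FC of 1.28 to 1.61. The median of the list was -0.06.

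Among 24 genes of microtubule dynamics none was called by edgeR or limma-voom, 4 had an unadjusted p under 0.05, and DESeq2 called 3 higher and 1 lower. PRC1, which bundles the microtubules of the central spindle, was at 8.70 and 9.18 CPM against 32.5, 16.3 and 26.6 CPM (log2FC 1.49, edgeR adjusted p = 0.0624). CLIP2, a protein that tracks growing ends, was at 13.4 and 30.5 CPM against 4.0, 9.51 and 7.44 CPM (log2FC -1.66, edgeR adjusted p = 0.076). Without control pool 1, CLIP2 was called lower (-2.13, edgeR adjusted p = 0.0275).

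Dynein with its cofactor dynactin is the motor that moves towards microtubule minus ends. Of 15 tested genes 1 was called in each direction. DYNC1I2, a dynein intermediate chain, was at 139 and 158 CPM in the control pools compared with 478, 323 and 336 CPM in the knockout pools (log2FC 1.36, edgeR adjusted p = 0.0461). ACTR1A, the actin-related protein of the dynactin filament, was at 135 and 110 CPM against 48.0, 52.4 and 57.9 CPM (log2FC -1.22, edgeR adjusted p = 0.0392). Each had groups that did not overlap, but the DYNC1I2 call was lost without any 1 of the 5 libraries (edgeR adjusted p of 0.065 and 0.0529 without control pools 1 and 2, and of 0.11, 0.0891 and 0.127 without sgMTSS1_1, sgMTSS1_2 and sgMTSS1_3), at a log2FC of 1.155 to 1.495. It was also lost with all libraries under RLE factors (edgeR adjusted p = 0.0525) and library size alone (0.0562). The ACTR1A call was lost without control pool 1 (edgeR adjusted p = 0.0568), sgMTSS1_1 (0.113), sgMTSS1_2 (0.129) or sgMTSS1_3 (0.138), at a log2FC of -1.25 to -1.05, and with no filter on low counts (0.0613). Over the 7 lists 4 of 87 tested genes were called, or 4.6%, close to the 5.18% called in the whole table. An unadjusted edgeR p under 0.05 was reached by 16 of the 87, a smaller share than 3357 of all 14391. DESeq2 called 11 of the 87, a larger share than its 1343 of 14391.

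**Figure D5:**
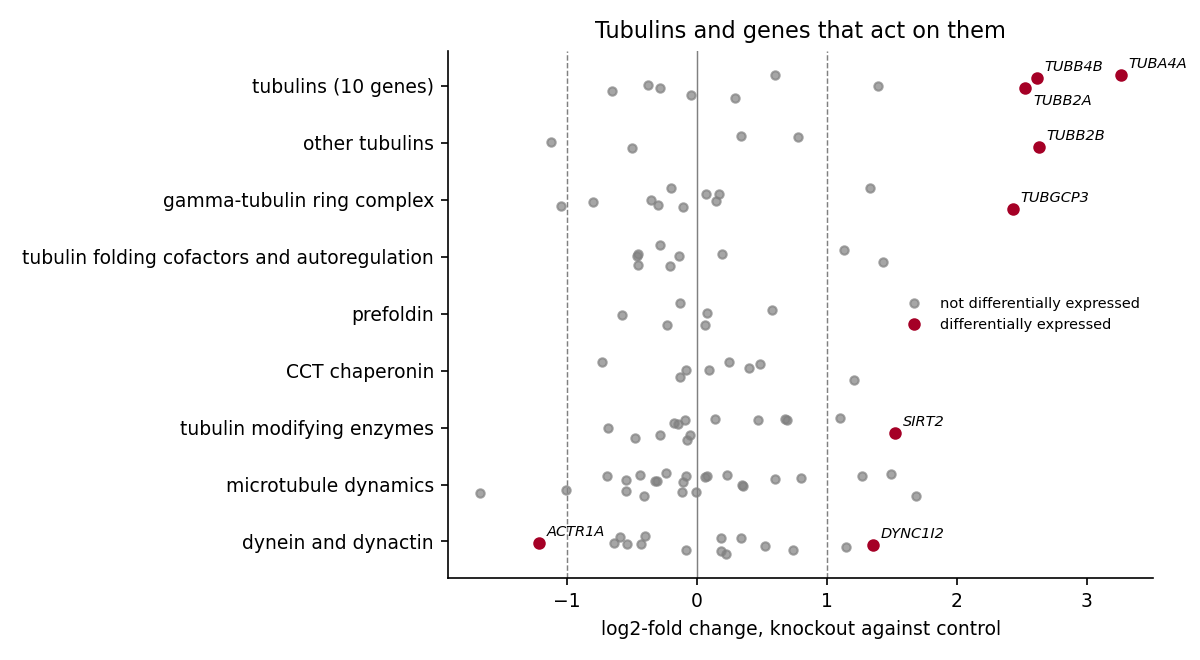
Log2-fold change of each tested gene (points) in the 10 tubulins, the other tubulins and 7 lists of genes that act on tubulin or microtubules. Points are spread vertically for visibility, red marks differential expression and dashed lines stand at -1 and 1. The points above 2 are TUBA4A, TUBB4B, TUBB2A, TUBB2B and TUBGCP3.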

How the data were processed

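RNA of 5 pools of TF-1 clones was sequenced by the authors with QuantSeq 3′ FWD libraries. According to the submitters' processing notes and methods, reads were checked with FastQC 0.11.9, trimmed with BBDuk, mapped with HISAT2 2.1.0 to GRCh38, handled with SAMtools 1.10, stripped of reads mapped to more than one place, and compared with DESeq2. The deposited values are raw counts per Ensembl gene. The counting program, its annotation and its use of strand are not given in the sources used here. The labels' sgRNA defined the 2 groups. A further control pool and the sgMTSS1_4 pool, which the authors set aside as outliers of their groups, were not analysed here. Genes were named and placed with GENCODE 44, which matched 27211 of 27328 rows.

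Counts were tested with edgeR 4.0.16 (TMM factors, filterByExpr with a minimum count of 10, quasi-likelihood test of condition, Benjamini-Hochberg adjustment over 14391 genes), after the script was tested on simulated data. Standard errors are the log2-fold change divided by the square root of F. Alternatives were DESeq2 1.42.0, limma-voom (limma 3.58.1), other scalings and filters, thinning, a replicate block and leaving out each library. The control libraries of 2849979 and 3408827 counts limit precision for low genes, and Wilson intervals and floors cover counting error only. Named were the 10 members, the other tubulins, the called genes of each list (or the 2 of smallest adjusted p), the 3 pseudogene rows with the most counts, MTSS1 and, for the highest alpha, beta and gamma member, the 3 genes of most similar pattern. The members and lists were chosen with earlier results of these data known. Promoters are from RefSeq (GRCh38.p14), and all 10 members matched. Same-numbered pools share only a number.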

Additional observations from a re-analysis of the deposited data

How the results depend on the processing

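TUBA4A, TUBB2A and TUBB4B were called under all 9 other scalings, filters and tests that kept every library, replicate block included, and the count of called members ran from 0 to 3 when 1 library was left out. TUBA1A was also called with no filter on low counts (log2FC 1.54, edgeR adjusted p = 0.04) and with a replicate block (1.35, edgeR adjusted p = 0.0443). The called genes of the whole table were 745, against 1343 with DESeq2, 1374 with no filter, 1077 with the replicate block and 111 (without sgMTSS1_1) to 1340 (without control pool 1) with 1 library left out. Called genes of the 7 lists were 4, against 11 with DESeq2, 2 with library size alone, 10 with no filter, 7 with the replicate block (which lost SIRT2, edgeR adjusted p = 0.06) and 1 to 10 with 1 library left out. To see whether pool numbers pair the samples, log2 CPM of pool 1 minus pool 2 was taken in each group, and the differences correlated at 0.17 across genes, but the numbers come from labels of unrelated pools and only 2 were shared. Library size alone and no filter moved the median log2FC of all genes to -0.17 and 0.11, and higher genes made up 71.2% of calls with library size alone against 80.5%.

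The direction turned for TUBA1C with no filter (0.11), with at least 10 counts in every library (0.0311) and over leaving out 1 library (-0.122 to 0.0821). PFDN5 turned with limma-voom (0.0644), with the replicate block (0.13) and over leaving out 1 library (-1.38 to 1.59). With 1 library left out, log2FC ranged from -0.72 to 0.41 for TUBB6, -0.669 to 0.0507 for TUBG1, -0.46 to 2.07 for TUBG2, -1.77 to 0.0393 for TUBB1, -0.95 to 0.21 for TUBE1 and -1.04 to 0.16 for MTSS1. The cause was not tested for any of these. None of these 8 genes was called with all 5 libraries in edgeR's test. Depth was lowest in the control libraries, where TUBG2 had 17 and 3 counts.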
